A study of Mus musculus with 23 samples.

Results

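The 10 genes described here mark the endothelium, the layer of cells that lines blood vessels: Pecam1, Cdh5, Kdr, Tek, Tie1, Vwf, Emcn, Clec14a, Cldn5 and Egfl7. They were chosen by name as well-known endothelial genes and found by symbol among the 37620 gene identifiers of the count tables. All 10 were present, and all 10 passed the filter on low counts in every comparison. The study measured gene expression by RNA sequencing in 23 libraries of mouse melanoma from a model of ultraviolet-induced tumours. HP primaries (7 libraries) were primary melanomas of genotype Nme1wt / Nme2wt, and HPN primaries (7 libraries) were primary melanomas of genotype Nme1+/- / Nme2+/-, in which 1 copy of each of these nucleoside diphosphate kinase genes is mutated. Node metastases (7 libraries) and lung metastases (2 libraries) came from Nme1+/- / Nme2+/- animals, and all metastases analysed here had that genotype. The labels do not spell out HP and HPN, and they give no age, sex, time or number of animals. Nodes 3, 4 and 8 were brachial, nodes 6 and 7a cervical, node 7b inguinal, and node 5 a lymph node with no site named. Because their titles carry the same number, 7a and 7b were added together for tests, leaving 6 node samples.

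Endothelial cells hold the vessel wall closed through junction proteins, sense growth signals through receptor tyrosine kinases, and control clotting and the entry of blood cells. VEGF ligands act on Kdr to drive the growth of vessels, and angiopoietins act on Tek, with Tie1 as its partner, to keep them stable or to loosen them. Tumours draw vessels from the tissue around them, while lymph nodes hold high endothelial venules, through which lymphocytes enter, and the lung holds a dense capillary bed.

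Among the junction genes, Pecam1 (ENSMUSG00000020717) encodes an adhesion molecule of endothelial cell borders that platelets and many white blood cells also carry. Cdh5 (ENSMUSG00000031871) encodes the cadherin of endothelial adherens junctions and Cldn5 (ENSMUSG00000041378) a claudin of tight junctions. The receptors are Kdr (ENSMUSG00000062960), the main signalling receptor for VEGF, Tek (ENSMUSG00000006386), the receptor for angiopoietins, and Tie1 (ENSMUSG00000033191). Clec14a (ENSMUSG00000045930) encodes a lectin-like surface protein known from growing vessels, and Emcn (ENSMUSG00000054690) a mucin of veins and capillaries. Vwf (ENSMUSG00000001930) encodes the secreted factor that tethers platelets at a wound. Egfl7 (ENSMUSG00000026921) encodes a secreted matrix protein of vessels, and its gene is host to the microRNA miR-126.

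Promoter sequences, from 250 bases before to 50 bases after a start site, were taken from RefSeq on GRCm38.p6, a later build than the authors' mm9. The RefSeq table matched 7 of the 10 members (Kdr, Tek, Tie1, Emcn, Clec14a, Cldn5 and Egfl7) with 9 promoters, 3 of them of Egfl7; Pecam1, Cdh5 and Vwf had no entry in it. Shown are Clec14a and Kdr, which were higher in node metastases, and Tie1, whose promoter had the most matches of the 9. Capitals mark the core GGAA, the letters that ETS family factors such as Erg and Fli1 recognise, on either strand (GGAA or TTCC). Each sequence is written 5′ to 3′ on the strand of its gene.
Clec14a (chr12:58269209-58269508, minus strand): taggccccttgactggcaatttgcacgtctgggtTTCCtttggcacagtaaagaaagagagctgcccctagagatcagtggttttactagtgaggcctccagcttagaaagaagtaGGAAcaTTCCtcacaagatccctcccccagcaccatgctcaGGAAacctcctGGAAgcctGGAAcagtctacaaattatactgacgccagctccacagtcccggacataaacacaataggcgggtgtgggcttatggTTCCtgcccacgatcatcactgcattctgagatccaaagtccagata
Kdr (chr5:75978406-75978705, minus strand): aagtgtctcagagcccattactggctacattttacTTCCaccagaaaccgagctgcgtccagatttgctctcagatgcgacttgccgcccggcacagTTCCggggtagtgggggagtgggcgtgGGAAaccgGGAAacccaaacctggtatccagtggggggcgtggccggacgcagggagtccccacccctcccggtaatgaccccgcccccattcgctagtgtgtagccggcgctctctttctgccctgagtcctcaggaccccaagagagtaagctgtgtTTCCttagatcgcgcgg
Tie1 (chr4:118489800-118490099, minus strand): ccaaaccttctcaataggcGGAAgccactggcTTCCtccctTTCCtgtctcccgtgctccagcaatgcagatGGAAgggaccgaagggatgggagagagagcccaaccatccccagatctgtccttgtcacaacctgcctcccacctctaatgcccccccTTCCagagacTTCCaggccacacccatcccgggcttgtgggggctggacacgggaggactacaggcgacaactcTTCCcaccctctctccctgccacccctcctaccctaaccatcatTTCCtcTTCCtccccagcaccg

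The promoter of Tie1 held 9 matches to the ETS core, that of Clec14a 7, that of Emcn 6 and that of Kdr 5. The 3 promoters of Egfl7 held 5, 4 and 1, that of Tek 2 and that of Cldn5 0. Of 32851 mouse promoters of this length 96.0% held at least 1 match, with a median of 3, so holding a match did not set the members apart. The longer form AGGAAG, read on both strands and containing the core, occurred in 35.4% of all promoters and in those of Tie1, Emcn and Egfl7. The GATA letters AGATAA, read on both strands, occurred in 11.2% of all promoters and 1 time among the members, in Tek. These matches describe letters and not binding.

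The microRNA inside Egfl7 is shown because its precursor lies within exonic sequence of that gene, and it is known as a microRNA of endothelial cells. Its mature sequence in RefSeq (GRCm38.p6, chr2:26591402-26591423, plus strand) has its seed, bases 2 to 8, in capitals.
mmu-miR-126a-3p: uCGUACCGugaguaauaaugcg

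In the annotation used for names, 73 of the 3581 exonic bases of Egfl7 were shared with the precursor Mir126a on the same strand, 264 with the predicted gene Gm20532 on the same strand, and 64 with Agpat2 on the opposite strand. Mir126a and Gm20532 had 0 counts in all 23 libraries, and reads from these stretches cannot be told apart from those of Egfl7. No other member shared exonic bases with a gene in the tables.

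Each library held RNA of a whole piece of tumour, with the vessels and host tissue in it. In such bulk samples fewer cells of a type and less RNA per cell cannot be told apart. Depth, as the total of gene counts in a library, ran from 18.9e6 to 89.5e6. The tables of 8 libraries list reads that were put aside because of poor alignment quality (the low-quality entry): nodes 7a, 7b and 8, HPN primary 7, and HP primaries 3, 6, 7 and 9. This entry is 0 in the remaining 15. Nme1 ran from 7.85 to 29.3 CPM (counts per 1e6 counts) in HP primaries and from 5.20 to 13.2 CPM in HPN primaries, and Nme2 from 0.320 to 0.863 and from 0.0684 to 0.408 CPM. Melanocyte genes were high in all 4 groups (7 genes, summed 4428 to 61650 CPM). The 2 lung libraries differed in makeup: 7 alveolar epithelium genes summed to 7262 CPM in lung 4 and 4.35 CPM in lung 3, and 5 cardiac muscle genes to 670.5 and 0.704 CPM. Results on lungs are therefore given for each library. The labels leave unsaid whether each primary came from its own animal. The p-values of tests without a block treat samples as independent, and could be too small if some primaries shared an animal.

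All 10 members were read in every library, with counts per library from 43 for Tek in HP primary 5 to 14327 for Vwf in HP primary 3. Levels are given as CPM after scaling all 23 libraries together, and as means ± SD over samples where a spread is given. The summed level of the 10 genes ran from 103.9 to 564.2 CPM in HP primaries, 165.5 to 367.7 CPM in HPN primaries and 262.7 to 780.5 CPM in nodes. It was 176.9 CPM in lung 3 and 1064 CPM in lung 4. Lung 4 was the highest of all 23 libraries for 5 members (Cdh5, Tek, Vwf, Clec14a and Cldn5), and HP primary 5 was the lowest of the HP primaries for 8.

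**Figure D1:**
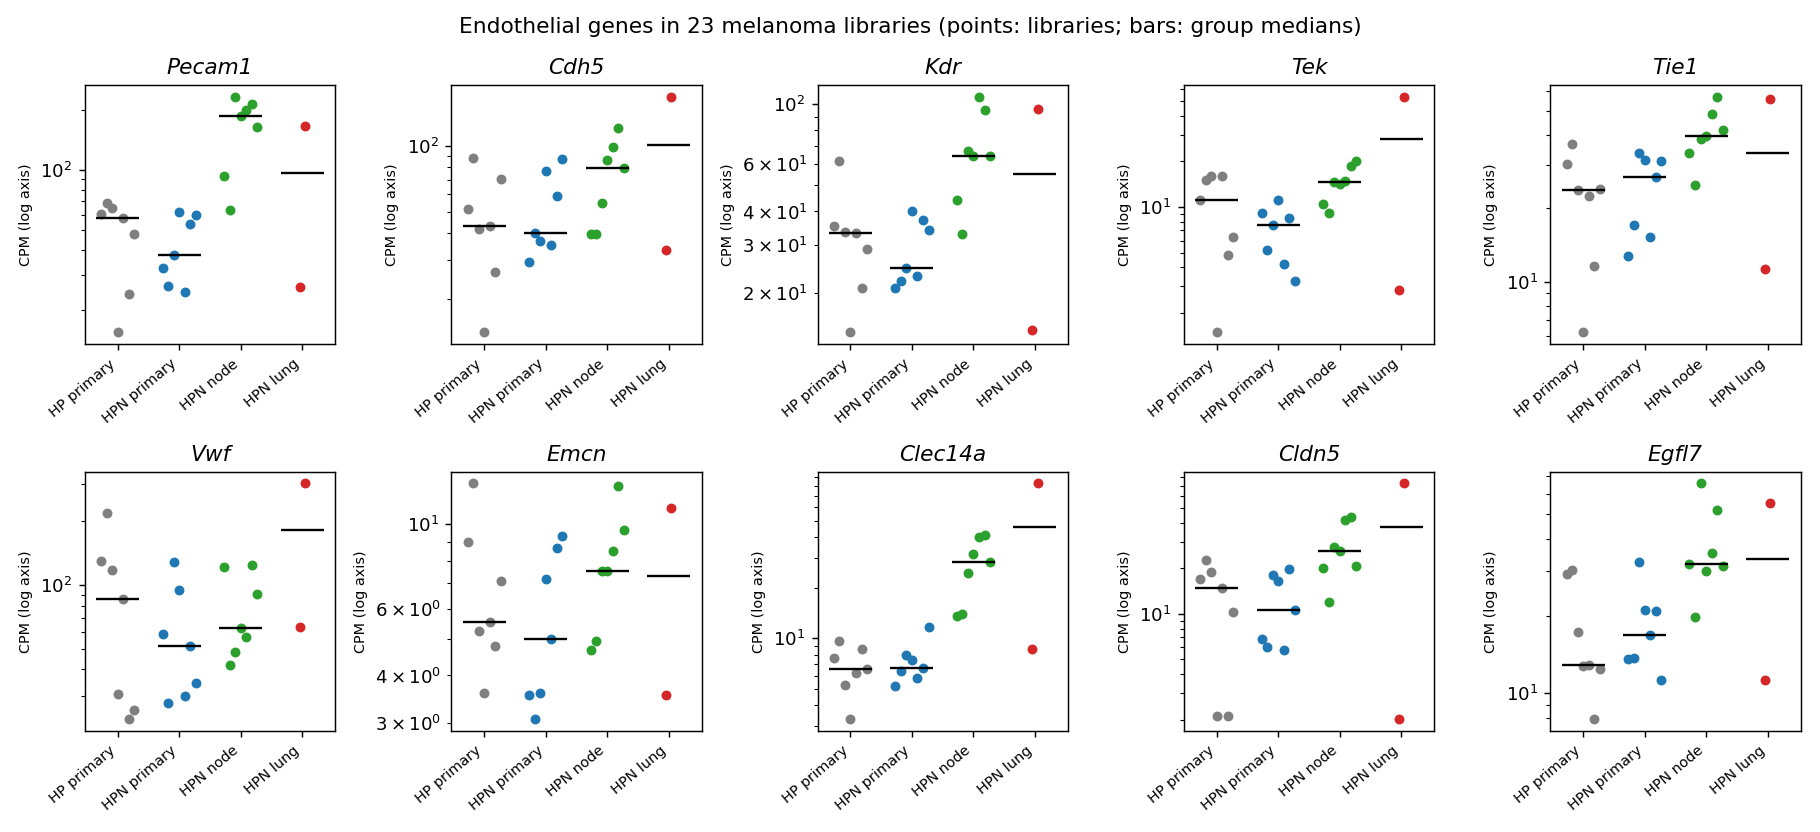
Level of each of the 10 endothelial genes in CPM (vertical log axis) in the 7 HP primaries, 7 HPN primaries, 7 node and 2 lung libraries. Points are libraries and bars are group medians. Clec14a and Pecam1 in nodes sit above all HPN primaries, and the 2 lung points lie 3.1 to 36.0-fold apart.

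CPM per kilobase of exon allows the genes to be set beside each other. On this scale Cdh5 stood first in both primary groups, with 12.4 ± 5.37 CPM per kilobase (SD, n = 7) in HPN and 11.4 ± 6.0 in HP primaries. Cldn5 followed at 8.44 ± 4.29 and Pecam1 at 6.78 ± 2.55 CPM per kilobase in HPN primaries, and each of these 3 lay within 1 SD of its neighbour. Egfl7 (5.18 ± 2.01), Tie1 (4.89 ± 1.78), Vwf (3.78 ± 2.36) and Kdr (3.19 ± 0.889 CPM per kilobase) came next in HPN primaries and were likewise not separated by their spread. A gap larger than the SDs lay below Kdr: Clec14a (1.60 ± 0.467), Tek (1.49 ± 0.611) and Emcn (1.07 ± 0.479 CPM per kilobase) came last. The order in nodes was led by Pecam1 at 25.5 ± 10.7 CPM per kilobase (n = 6), before Cldn5 (17.5 ± 7.27) and Cdh5 (16.3 ± 6.72). The gap from Pecam1 to Cldn5 was larger than the SD of Cldn5 and smaller than that of Pecam1, and Cldn5 and Cdh5 lay within 1 SD of each other. Emcn stood last in all 4 groups, at 1.39 CPM per kilobase in nodes and 1.35 in lungs.

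The comparison of HPN with HP primaries asks what goes with a mutated copy of both kinase genes in primary tumours. None of the 10 endothelial genes passed the test, and the genotypes overlapped for every one of them. The test, used throughout, was edgeR's quasi-likelihood test with Benjamini-Hochberg adjustment over all genes, and a gene passed at an adjusted p under 0.05. In this comparison 0% of the 16578 genes tested passed (background, either direction), with 477 at an unadjusted p under 0.05, and 0 of the 10 members lay under 0.05 unadjusted. DESeq2 also called 0 genes.

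Pecam1 ran from 15.4 to 68.4 CPM (median 57.5) in HP primaries and from 24.5 to 61.6 CPM (median 37.5) in HPN primaries. Cdh5 ran from 14.1 to 88.3 CPM (median 43.0) and from 29.4 to 87.3 CPM (median 39.8). Cldn5 ran from 2.10 to 22.6 CPM (median 14.9) and from 5.74 to 19.8 CPM (median 10.7). For all 3 junction genes HP primary 3 was the highest HP primary and HP primary 5 the lowest, and the HPN primaries lay between them. Their log2 differences, HPN minus HP, were -0.24 (SE 0.34) for Pecam1, 0.08 (SE 0.37) for Cdh5 and -0.12 (SE 0.54) for Cldn5.

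Kdr ran from 14.2 to 61.9 CPM (median 33.2) in HP and from 20.8 to 40.1 CPM (median 24.6) in HPN primaries. Tek ran from 1.48 to 16 CPM (median 11.2) and from 3.26 to 11.2 CPM (median 7.60). Tie1 ran from 6.21 to 36.5 CPM (median 23.8) and from 12.7 to 33.5 CPM (median 26.9). The HP range enclosed the HPN range for each of these receptors. The log2 differences were -0.21 (SE 0.28) for Kdr, -0.56 (SE 0.47) for Tek and 0.08 (SE 0.36) for Tie1.

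Clec14a ran from 3.31 to 9.64 CPM (median 6.62) in HP and from 5.24 to 11.7 CPM (median 6.64) in HPN primaries. Emcn ran from 3.59 to 12.8 CPM (median 5.52) and from 3.07 to 9.30 CPM (median 4.98). Among the HPN primaries, number 7 was the highest for both of these surface genes, as it was for Cdh5. Of the secreted factors, Vwf ran from 23.3 to 218 CPM (median 86.4) and from 27.7 to 129 CPM (median 51.7), the largest range in CPM of any member. Egfl7 ran from 7.92 to 30.3 CPM (median 12.9) and from 11.3 to 32.5 CPM (median 16.9). The genotypes overlapped in all 4 genes. For Vwf and Emcn the highest library was an HP primary, and for Clec14a and Egfl7 an HPN primary. The log2 differences of these 4 genes lay between -0.61 (Vwf, SE 0.55) and 0.08 (Clec14a, SE 0.24). edgeR's adjusted p ran from 0.951 to 0.988 over the 10 members, whose median log2 difference was -0.17, beside -0.05 over all genes.

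The primaries also differed in how much skin they held, and the endothelial genes are given beside that. The 8 keratinocyte genes (Krt1, Krt5, Krt10, Krt14, Dsg3, Lgals7, Col17a1 and Trp63; none was at 0 throughout a group) summed to 27.0, 8.05 and 10.8 CPM in HP primaries 5, 7 and 9, where the 10 endothelial genes summed to 103.9, 134.4 and 239.8 CPM. In HP primaries 1, 3, 4 and 6 keratinocyte genes summed to 4331 to 14650 CPM and endothelial genes to 298.2 to 564.2 CPM. Among HPN primaries 2, 5 and 7, with 2.29 to 56.5 CPM of keratinocyte genes, the endothelial sums were 167.2, 165.5 and 293.2 CPM. Against these, HPN primaries 1, 3, 4 and 6, with 868 to 6276 CPM of keratinocyte genes, had sums of 192.2, 331.0, 367.7 and 293.1 CPM, so the 2 sets overlapped in this genotype. The part of skin in the genotype comparison was not tested.

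Of the other vessel genes, 0 passed between genotypes in any list. Among the ligands 8 of 10 lay above 0 (median log2 difference 0.43), and among the co-receptors 3 of 4. Among Notch pathway genes 1 of 11 lay above 0 (median -0.35), and among 20 further pan-endothelial genes 7 (median -0.10). The 12 pericyte and smooth muscle genes had a median of -0.28.

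Node metastases were compared with HPN primaries to see how a tumour in a lymph node differed from one in skin in its vessel genes. Pecam1, Clec14a and Kdr were higher in nodes, by 3.72-fold, 3.44-fold and 2.14-fold, and the other 7 endothelial genes had positive differences that did not pass. So 3 of 10 members passed as higher and 0 as lower, where 12.7% of the 19152 genes tested passed as higher and 9.81% as lower. The median log2 difference of the 10 members was 0.99, beside -0.08 over all genes. An HPN title number was taken to stand for an animal, which the labels do not state outright. With the title number as a block, 0 of the 10 passed, with 1274 genes passing in all in place of 4313. The block sets a metastasis against the primary of the same number. Node 8 has no such primary, and HPN primaries 1 and 2 have no metastasis. These samples do not bear on the blocked difference, which thus rests on fewer samples.

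Pecam1 ran from 62.9 CPM (node 4) through a median of 188 to 234 CPM (node 5) in nodes. Its 7 HPN primaries ran from 24.5 to 61.6 CPM, so every node library lay above every primary, the lowest node by a narrow margin. Nodes averaged 158 ± 66.9 CPM (n = 6) and primaries 42.2 ± 15.8 CPM (n = 7), which gave a log2 difference of 1.90 (SE 0.41, edgeR adjusted p = 0.00575). Leaving out each sample in turn kept the call, with edgeR adjusted p from 0.00233 to 0.0152. With the block the difference was 1.71 and the edgeR adjusted p = 0.100.

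Clec14a ran from 13.6 CPM (node 3) through a median of 28.3 to 40.8 CPM (node 7b) in nodes. In the HPN primaries it ran from 5.24 to 11.7 CPM, and no node reached down to them. The mean was 25.3 ± 10.4 CPM in nodes (n = 6) and 7.29 ± 2.13 CPM in primaries (n = 7), with a log2 difference of 1.78 (SE 0.41, edgeR adjusted p = 0.00781). It kept its call with each sample left out in turn (edgeR adjusted p from 0.00556 to 0.0223). It lost the call with the block (1.56, edgeR adjusted p = 0.113). The call was also lost without the samples of this fit that hold low-quality entries (1.64, edgeR adjusted p = 0.0564). Those were nodes 7 and 8 and HPN primary 7, so 4 nodes and 6 primaries remained. In that run Pecam1 alone of the members passed (1.86, edgeR adjusted p = 0.0461).

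Kdr ran from 33.1 CPM (node 4) through a median of 64.4 to 107 CPM (node 7a) in nodes, and from 20.8 to 40.1 CPM in HPN primaries. Node 4 lay inside the range of the primaries and the other nodes lay above it. With means of 62.4 ± 23.2 CPM in nodes (n = 6) and 28.8 ± 8.03 CPM in primaries (n = 7), the log2 difference was 1.10 (SE 0.36, edgeR adjusted p = 0.0405). The call of Kdr was near the threshold and was lost when any 1 of 9 of the 13 samples was left out (primaries 1, 2, 3, 5 and 7 and nodes 5, 6, 7 and 8; adjusted p up to 0.100). It was also lost with the block (edgeR adjusted p = 0.191) and with low-quality entries as a term (0.0815).

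Of the remaining receptors, Tek ran from 9.17 to 20.2 CPM (median 14.5) in nodes, and 4 of 6 node samples lay above all HPN primaries. Tie1 ran from 25.0 to 57.1 CPM (median 39.5), with 5 of 6 node samples above all primaries. Of these, node 3 was practically level with HPN primary 3, both at 33.5 CPM. The log2 differences of Tek and Tie1 were 0.99 (SE 0.48, edgeR adjusted p = 0.149) and 0.67 (SE 0.34, edgeR adjusted p = 0.159). For both receptors the overlap with the primaries came from node 4, and for Tek also from node 3.

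Cldn5, of the tight junction, ran from 12.0 to 43.7 CPM (median 25.9) in nodes, with 5 of 6 samples above all primaries, and a log2 difference of 1.04 (SE 0.57, edgeR adjusted p = 0.193). Egfl7 ran from 19.9 to 65.7 CPM (median 31.9), and HPN primary 3 at 32.5 CPM lay above 4 of the 6 node samples. Its log2 difference was 0.98 (SE 0.37, edgeR adjusted p = 0.0696). Egfl7 was the only further member that DESeq2 called (adjusted p = 0.0371), and it also passed with nodes 7a and 7b kept apart (edgeR adjusted p = 0.0435). These runs called 5743 of 19152 and 5397 of 19215 genes, where the main fit called 4313.

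Cdh5, Emcn and Vwf had the smallest differences. Cdh5 ran from 39.8 to 121 CPM (median 79.2) in nodes, and HPN primary 7 at 87.3 CPM was above all but 1 of the 6 node samples. Its log2 difference was 0.38 (SE 0.38, edgeR adjusted p = 0.473). Emcn ran from 4.66 to 12.6 CPM (median 7.54) in nodes, a log2 difference of 0.37 (SE 0.35, edgeR adjusted p = 0.453). Vwf ran from 42.1 to 124 CPM (median 62.5), below the highest primary (129 CPM) in every node, a log2 difference of 0.29 (SE 0.44, edgeR adjusted p = 0.649). For these 3 genes the nodes overlapped the primaries over most of their range.

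**Figure D2:**
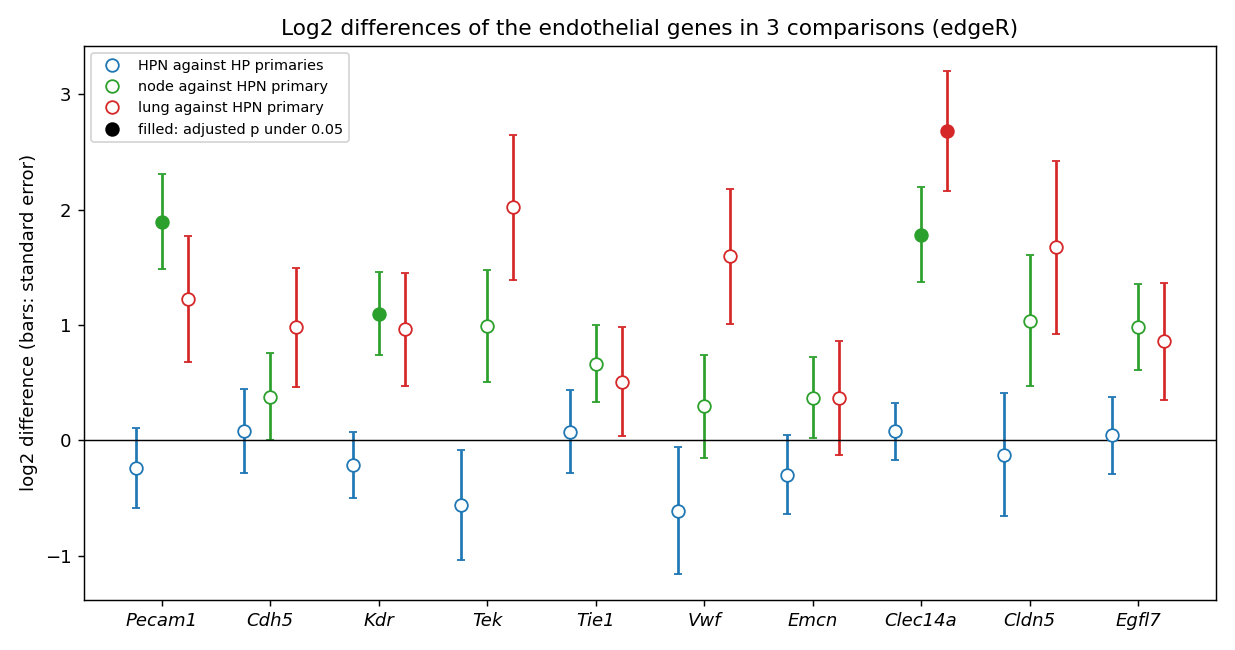
Log2 difference of each endothelial gene with its standard error (bars) for HPN against HP primaries, node against HPN primary and lung against HPN primary, from edgeR. Filled points have an adjusted p under 0.05: Pecam1, Kdr and Clec14a in nodes and Clec14a in lungs.

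The same nodes stood at the ends of the range for most members, while the order between them varied. Node 4 was the lowest node for 8 of the 10 genes and node 3 for the other two, Emcn and Clec14a. Node 7b was the highest node for 6 of them. Against the primary of the same number, node 4 was higher in 2 of 10 genes (Pecam1 by 0.03 and Clec14a by 0.87 in log2(CPM + 0.5)), with a median of -0.30. Node 3 was higher in 7 (median 0.24) and level in Tie1 (0.0). Node 6 was higher in 9 (0.54), and nodes 5 and 7 in all 10 (1.60 and 1.65). Pecam1 and Clec14a were the 2 members higher in the node in 5 of 5 pairs. The share of all genes higher in 5 of 5 pairs was not computed.

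**Figure D3:**
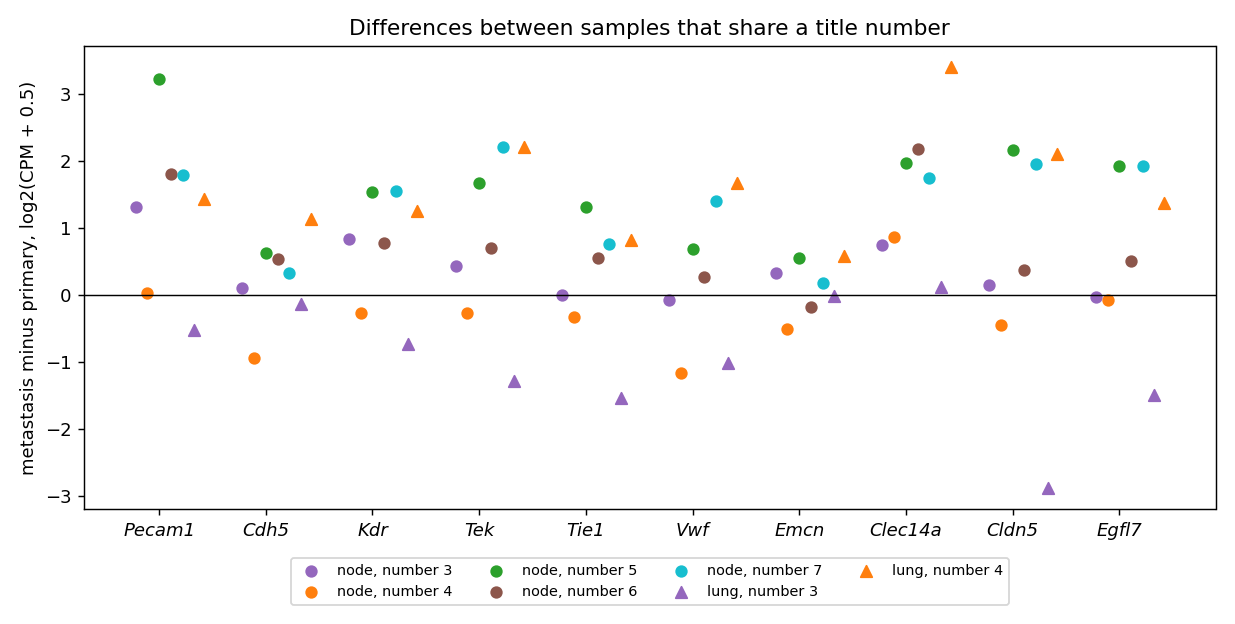
Metastasis minus primary of the same title number, in log2(CPM + 0.5), for each endothelial gene. Circles are the 5 nodes and triangles the 2 lungs, coloured by number. Pecam1 and Clec14a are above 0 in 5 of 5 nodes, and the lungs of numbers 3 and 4 lie on opposite sides of 0 for all members but Clec14a.

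To compare the members with each other within a sample, each was also set against Cdh5 in the same sample, as a ratio of counts. This measure was chosen after the levels were seen. Pecam1 counts were 1.58 to 4.24 times those of Cdh5 in nodes (median 2.13) and 0.661 to 1.10 times in HPN primaries (median 0.805). Clec14a stood at 0.342 to 0.441 of Cdh5 in nodes and 0.0969 to 0.215 in primaries. Kdr stood at 0.746 to 1.22 in nodes and 0.391 to 0.707 in primaries. For these 3 genes no node sample overlapped a primary, so they differed between node and primary by more than Cdh5 did. The share of all genes whose ratio to Cdh5 showed no overlap was not computed.

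The log2 differences of these ratios were 1.46 for Pecam1, 1.33 for Clec14a and 0.68 for Kdr (6 nodes, 7 primaries), each with an exact two-sided permutation p of 0.00117, the smallest that 1716 arrangements can give. In all, 18 such ratios were tested (each other member against Cdh5, in nodes and between genotypes), and the exact p values are unadjusted unless said. With Benjamini-Hochberg adjustment over the 18, the exact permutation p of these 3 was 0.00699 each. The members and the measure were chosen with results known, which the adjustment does not take into account. Among the other ratios in nodes, Cldn5 had an exact permutation p of 0.0478 (0.172 adjusted) and Tek 0.0862 (0.259 adjusted), and their groups overlapped. The ratios of Tie1, Egfl7, Emcn and Vwf to Cdh5 also overlapped (exact permutation p from 0.157 to 0.922). Between genotypes all 9 ratios overlapped, with the lowest exact permutation p, 0.0396 (0.172 adjusted), for Emcn. It stood at 0.0775 to 0.146 of Cdh5 in HPN and 0.101 to 0.256 in HP primaries. With Tie1 in place of Cdh5 the ratio of Kdr no longer stood apart (0.34, exact permutation p = 0.0629), while Pecam1 and Clec14a had exact p = 0.00233. Within same-numbered pairs the 3 ratios were higher in 5 of 5 nodes, with an exact p of 0.0625, the smallest that 5 pairs allow.

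**Figure D4:**
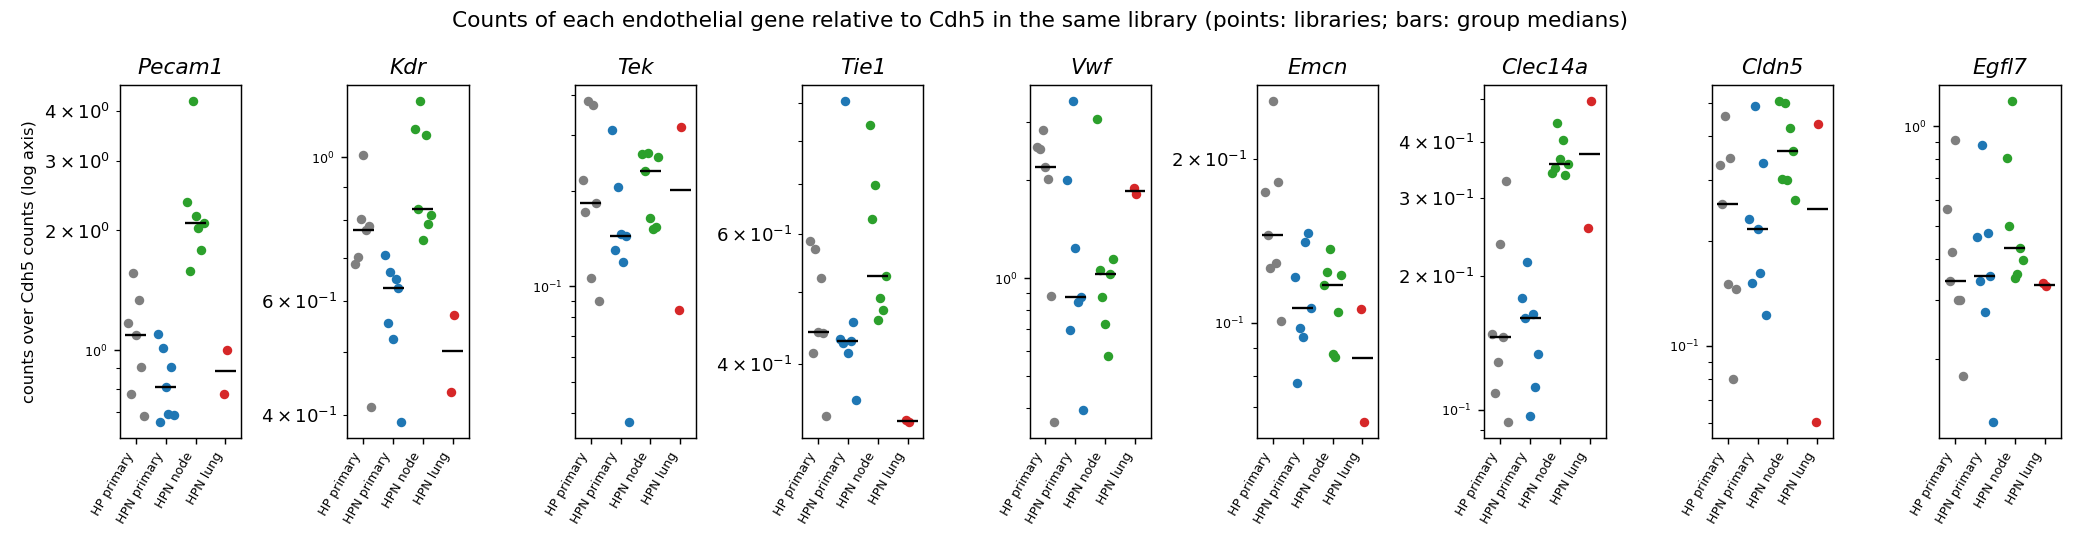
Counts of each endothelial gene divided by the counts of Cdh5 in the same library (vertical log axis), by group. Points are libraries and bars group medians. For Pecam1, Kdr and Clec14a the node points lie above all HPN primary points, while for Vwf and Emcn they overlap.

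Other cell types moved with these results. The 6 B cell genes (none at 0 throughout a group) summed to 163 to 1562 CPM in nodes and 0.612 to 8.64 CPM in HPN primaries, and all 6 of 6 were higher in nodes. The 6 T cell genes summed to 88.2 to 576.9 CPM in nodes and 3.97 to 26.9 CPM in HPN primaries, also with 6 of 6 higher. Of 5 macrophage genes 1 was higher, with sums of 243.8 to 889.7 and 55.3 to 550.8 CPM. In the other direction, all 8 keratinocyte genes were lower in nodes (2.29 to 22.6 against 2.29 to 6276 CPM), as were all 5 skeletal muscle genes (2.33 to 5.89 against 2.09 to 2554 CPM). Node 4, the lowest node for most endothelial genes, also had the lowest B and T cell sums of the nodes. The part of white blood cells, which also make Pecam1, in its difference was not tested.

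**Figure D5:**
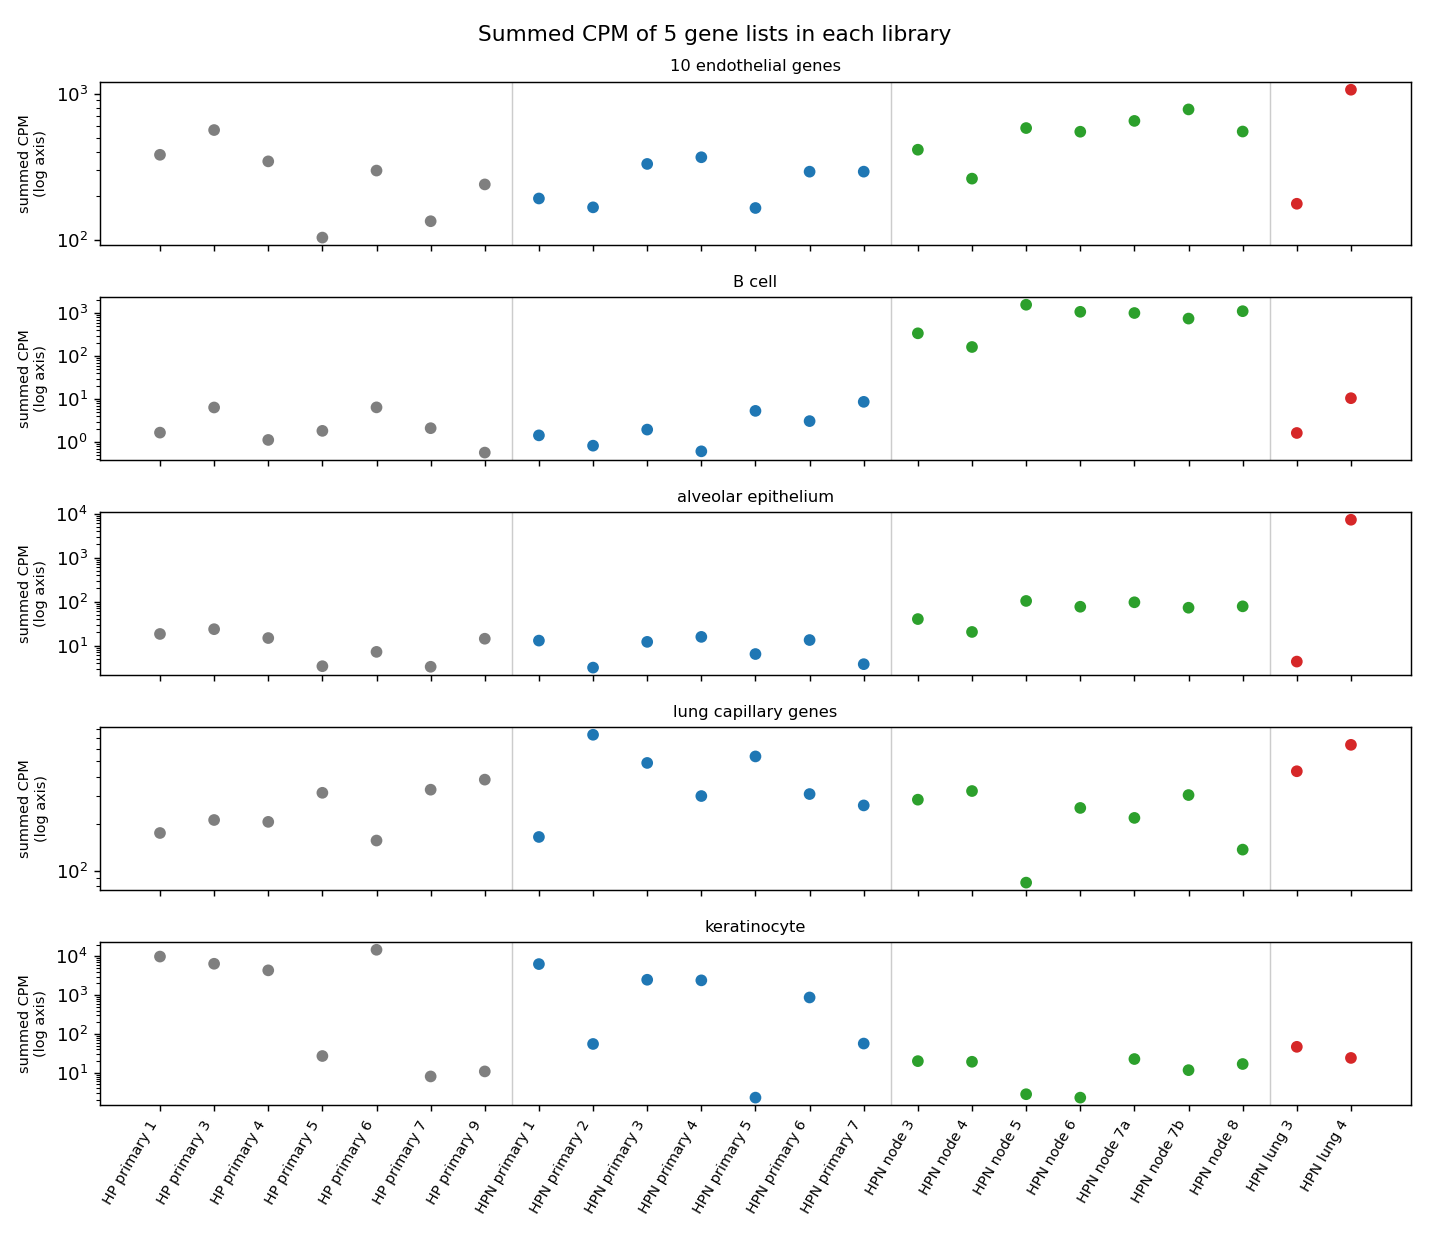
Summed CPM (vertical log axes) of the 10 endothelial genes and of 4 marker lists in each library, with grey lines between groups. B cell genes are high in all nodes, alveolar epithelium genes are high in lung 4 and low in lung 3, and keratinocyte genes range from 2.29 to 14650 CPM over the primaries.

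High endothelial venule and activated venule genes were higher in nodes for 5 of 8, and their sum was 29.8 to 462.3 CPM in nodes against 5.81 to 24.1 CPM in HPN primaries. Glycam1, a mucin that lymphocytes bind in these venules, had from 77 to 3141 counts in the nodes and from 0 to 11 in HPN primaries, a log2 difference of 8.32 (SE 1.13, edgeR adjusted p = 0.000293). Vcam1, an adhesion molecule of activated endothelium that other stromal cells also make, differed by 4.70 (SE 0.55, edgeR adjusted p = 0.000122). Chst4 and Fut7, which build the sugar ligand for lymphocyte entry, differed by 6.22 and 3.23, the first from 0 to 4 counts per HPN primary and 0 to 127 per node library. Both lost the call with the block (edgeR adjusted p = 0.0888 and 0.0882). With the block 2 of the 8 passed, Glycam1 and Vcam1. Among 7 lymphatic endothelium genes 1 was higher, Prox1, the transcription factor of lymphatic identity (1.13, SE 0.31, edgeR adjusted p = 0.0180; 0.122 with the block). The lymphatic sum was 197.4 to 662.2 CPM in nodes and 61.2 to 387.5 CPM in primaries. Of all genes tested, 12.7% passed as higher in nodes.

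Of 20 further pan-endothelial genes 4 were higher in nodes and 0 lower, with a median log2 difference of 0.70. Over all genes, 12.7% passed as higher and 9.81% as lower. S1pr1, the receptor for sphingosine phosphate on endothelial cells and lymphocytes, differed by 2.33 (SE 0.40, edgeR adjusted p = 0.00118) and passed with the block as well (0.0498). Mmrn2, a matrix protein that binds Clec14a, differed by 1.32 (SE 0.27, edgeR adjusted p = 0.00414), and Icam2, an adhesion molecule also of white blood cells, by 2.73 (SE 0.57, edgeR adjusted p = 0.00434). Calcrl, a receptor for adrenomedullin, differed by 1.88 (SE 0.59, edgeR adjusted p = 0.0339). With the block, S1pr1 alone of these 4 passed, and the adjusted p of the other 3 ran from 0.0927 to 0.146. Calcrl also lost the call when any 1 of 8 samples was left out (primaries 2, 3, 5 and 7 and nodes 5, 6, 7 and 8).

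The ligands of these receptors were tested as well, where 12.7% of all genes passed as higher in nodes and 9.81% as lower. Of 10 VEGF, angiopoietin and related ligands 2 had positive differences, 0 passed as higher and 1 as lower in nodes (median log2 difference -0.59). The 1 that passed was Angpt4, a ligand of Tek, at -2.60 (SE 0.58, edgeR adjusted p = 0.00639; 0.0401 with the block). None of the 4 VEGF receptors and co-receptors beside Kdr (Flt1, Flt4, Nrp1 and Nrp2) passed, with differences between -0.10 and 0.44. In the Notch pathway 1 of 11 genes was lower, Heyl, a Notch target also of vessel-wall muscle (-2.33, SE 0.63, edgeR adjusted p = 0.0170; 0.0699 with the block).

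Of 12 endothelial transcription factors 2 were higher in nodes, where 12.7% of all genes tested passed as higher. Fli1, an ETS factor of endothelium and blood cells, differed by 2.83 (SE 0.41, edgeR adjusted p = 0.000425; 0.0298 with the block). Klf2, a factor induced by blood flow that lymphocytes also make, differed by 3.03 (SE 0.56, edgeR adjusted p = 0.0020; 0.0760 with the block). Of 10 tip cell and tumour vessel genes 2 were higher: Cxcr4, a chemokine receptor also of lymphocytes (2.32, SE 0.46, edgeR adjusted p = 0.00332), and Plvap, of the diaphragms of vessel openings (1.20, SE 0.37, edgeR adjusted p = 0.0330). Neither passed with the block (0.0666 and 0.216), and Plvap lost the call when any 1 of 8 samples was left out (primaries 1, 2, 3, 5 and 6 and nodes 6, 7 and 8).

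Of 12 pericyte and smooth muscle genes, which mark the cells around vessels, 3 were higher in nodes and 1 lower (median 0.15). Over all genes, 12.7% passed as higher and 9.81% as lower. Abcc9 (2.69, SE 0.31, edgeR adjusted p = 0.000106), Kcnj8 (2.20, SE 0.38, edgeR adjusted p = 0.00118) and Rgs5 (1.87, SE 0.28, edgeR adjusted p = 0.000522) were higher, the first pair being subunits of a potassium channel of pericytes. All 3 passed with the block too (edgeR adjusted p from 0.0101 to 0.0363). Cspg4, a proteoglycan of pericytes and melanoma cells, differed by -1.62 (SE 0.34, edgeR adjusted p = 0.00489; 0.108 with the block). Among 10 lung capillary genes 1, Foxf1, a factor of lung and gut mesenchyme and endothelium, was higher in nodes (3.81, SE 0.69, edgeR adjusted p = 0.00173; 0.0316 with the block). Of 8 platelet genes tested 1 was higher, Itga2b (2.0, edgeR adjusted p = 0.0199; 0.0675 without node 7, 0.118 with the block), and 1 lower, Gp1bb (-2.46, edgeR adjusted p = 0.00716). Without nodes 7 and 8 and HPN primary 7, which hold low-quality entries, 1542 of 18820 genes passed in either direction. In that fit 2 of the 20 pan-endothelial, 3 of the 8 venule, 2 of the 12 transcription factor and 0 of the 10 tip cell genes passed as higher. Of the pericyte genes 3 were higher and 1 lower.

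Lung metastases were compared with HPN primaries, with only 2 lungs to set against 7 primaries. Clec14a was the 1 member of 10 that passed as higher, at 6.41-fold, where 0.251% of the 19152 genes tested passed as higher and 0.0157% as lower. It stood at 8.61 CPM in lung 3 and 83.0 CPM in lung 4, against 5.24 to 11.7 CPM in the primaries. Lung 3 thus lay inside the range of the primaries and lung 4 far above it. The log2 difference was 2.68 (SE 0.52, edgeR adjusted p = 0.0495). Without lung 4 it was 0.24 (edgeR adjusted p = 0.961), and with the block 2.47 (edgeR adjusted p = 0.709), so the call rests on lung 4. It was also lost when any 1 of the 7 primaries was left out.

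In lung 4 all 10 members were above the primary of the same number, by a median of 1.41 in log2(CPM + 0.5). In lung 3 only Clec14a was above its primary, by 0.11, and the median was -0.88. Cdh5 was 33.6 CPM in lung 3 and 168 CPM in lung 4, Pecam1 26.0 and 168 CPM, and Kdr 14.6 and 95.8 CPM. The widest gap was that of Cldn5, at 2.02 CPM in lung 3, the lowest of all 23 libraries, and 72.6 CPM in lung 4, the highest, a ratio of 36.0. Tek stood at 2.81 and 53.4 CPM, Vwf at 63.2 and 302 CPM, and Egfl7 at 11.3 and 55.3 CPM. Tie1 (11.3 and 56.0 CPM) and Emcn (3.55 and 11 CPM) completed the set, and the median ratio of lung 4 to lung 3 over the 10 genes was 5.71.

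The other 9 members had positive log2 differences from primaries, between 0.37 (Emcn) and 2.02 (Tek, SE 0.63, edgeR adjusted p = 0.397), with standard errors of 0.47 to 0.75. Without lung 3, which leaves 1 lung, the log2 differences of Tek, Cldn5 and Kdr were 2.95, 2.63 and 1.76. Without lung 4 the differences of these 3 genes were -1.31, -2.56 and -0.98.

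Lung 4 held the alveolar and cardiac genes given above, of which lung 3 held nearly none. In the fit over both lungs, 4 of 6 alveolar epithelium genes tested, 3 of 4 cardiac genes and 2 of 10 lung capillary genes were higher than in primaries, and with lung 4 left out 0 of each list passed. Foxf1 differed by 6.01 (SE 0.83, edgeR adjusted p = 0.0105) and Prx, a lung capillary gene also of nerve sheaths, by 3.03 (SE 0.57, edgeR adjusted p = 0.0416). Of 20 further pan-endothelial genes 1 was higher, Ptprb, a phosphatase that acts on Tek (2.39, SE 0.44, edgeR adjusted p = 0.0360). Ptprb stood at 57.9 CPM in lung 3, inside the range of the HPN primaries (31.7 to 64.8 CPM), and at 424 CPM in lung 4. Without lung 4 its log2 difference was 0.31. The calls of Ptprb and Prx were also lost when any 1 of primaries 2 to 7 was left out, and all 3 with the block. How much of the level of the endothelial genes in lung 4 goes with that tissue was not tested.

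Between lungs and nodes 0 of 10 members passed, where 5.04% of the genes tested passed, 1.96% as higher and 3.09% as lower, and 0 of the 10 had an unadjusted p under 0.05. DESeq2 also called 0 members. The log2 differences, lung minus node, ran from -0.67 (Pecam1, SE 0.62, edgeR adjusted p = 0.546) to 1.3 (Vwf, SE 0.61, edgeR adjusted p = 0.222). This comparison shares its nodes and lungs with those above. Among lung capillary genes 4 of 10 were higher in lungs: Prx (3.88), Gpihbp1, which anchors lipoprotein lipase on capillaries (2.44), Tmem100 (4.95) and Bmp6 (3.13). Acvrl1, a receptor for bone morphogenetic proteins (1.68), and Ptprb (1.75) were higher among the 20 pan-endothelial genes, and Fli1 was lower (-2.58) among the 12 transcription factors. Each of these 7 calls was lost without lung 4 and with the block, and each but that of Prx was also lost without at least 1 node.

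Of 12 pericyte and smooth muscle genes 3 were lower in lungs than in nodes and 0 higher: Abcc9 (-3.55, SE 0.55, edgeR adjusted p = 0.0138), Rgs5 (-2.61, SE 0.48, edgeR adjusted p = 0.0180) and Kcnj8 (-2.73, SE 0.65, edgeR adjusted p = 0.0352). Rgs5 stood at 26.1 and 27.1 CPM in the lungs and at 85.3 to 236 CPM in the node libraries, with no overlap. These are the same 3 genes that were higher in nodes than in primaries, and both comparisons share the nodes. Of 8 high endothelial venule and activated venule genes 2 were lower in lungs, Glycam1 (1 to 7 counts per lung library) and Vcam1 (-3.36, SE 0.89, edgeR adjusted p = 0.0453). Without lung 4 these 5 differences remained negative and none passed, none passed with the block, and without lung 3 only Abcc9 passed. The calls of Kcnj8, Glycam1 and Vcam1 were also lost when any 1 of nodes 5, 6, 7 and 8 was left out. Other cell types moved with this comparison too. Lower in lungs were 6 of 6 B cell genes (median log2 difference -7.28) and 5 of 6 T cell genes (-5.54), and higher were 5 of 6 alveolar epithelium genes tested (8.25) and 3 of 4 cardiac muscle genes tested (8.68), the last pair of lists being high in lung 4 alone. Their part in the differences of the vessel genes was not tested.

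To see which genes followed the members from sample to sample, each gene was correlated with the mean standardised level of the 10, after the mean of its group had been taken off, over 22 samples and 11846 genes of at least 5 CPM on average. The values are descriptions with no test, since samples share makeup and depth. Highest were Rasip1 (r = 0.972), She (0.959), Cyyr1 (0.935), Ptprb (0.931), Adgrf5 and Arhgef15 (0.914 each), Clec1a (0.910), Cp and Plvap (0.907 each) and Ecscr (0.904). Of these 10 genes 5 (Rasip1, She, Ptprb, Arhgef15 and Ecscr) were in the list of further pan-endothelial genes.

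Among the members, Kdr followed the mean of the others most closely (r = 0.971), before Cldn5 (0.948), Tie1 (0.944) and Pecam1 (0.934). Vwf followed it least (0.685), before Egfl7 (0.742) and Clec14a (0.790). Over the 45 pairs of members r ran from 0.397 (Clec14a with Vwf) to 0.933, with a median of 0.775.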

How the data were processed

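Directional libraries were made from total RNA of tumours, per the labels' protocols. The submitters' processing notes name bcl2fastq 1.8.4, STAR 2.5.3a (an aligner) and the build mm9. Each deposited table holds raw counts of reads per Ensembl gene for 1 library, without normalization by the authors. Version and strand setting of the counting step: not given in the sources used here. Rows that name no gene were left out. Symbols came from GENCODE vM21 (GRCm38) by identifier and matched 87.45% of the 37620 identifiers, and exon lengths came from the same annotation.

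Fits were made with edgeR 4.0.16 in R 4.3.3 (filterByExpr, TMM, robust glmQLFit, glmQLFTest, Benjamini-Hochberg over all genes, threshold 0.05): 14 primaries by genotype, and 15 HPN samples by site, in which lungs share the spread of all groups. CPM used TMM factors over all 23 libraries. Alternatives were DESeq2 1.42.0, its size factors, other filters on low counts (none, or over 1 CPM), all groups in 1 fit, nodes 7a and 7b apart, low-quality entries as a term or those libraries left out, each sample left out, and the title number as a block. Ratios of counts plus 0.5 were tested by exact permutation (scipy 1.17.1). The code was tested on simulated data.

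HPN numbers were taken to pair samples because they were read as animals. Deviations of same-numbered HPN primaries and nodes correlated at -0.10 to 0.32 over 13756 genes. For HP and HPN primaries the 6 correlations were 0.130 to 0.611, and these numbers were also tried as a block, though the animals differ. Primaries of unlike numbers were not correlated, so these values do not show that the numbers pair samples of the 2 genotypes. The named genes were all 10 members in every comparison, up to 4 of each other list by smallest p, and the 10 most alike genes. The members and lists were chosen with earlier results of these data known. No chance test over lists was made.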

Additional observations from a re-analysis of the deposited data

Results flagged for a closer look

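Among the 30 sets of values checked for a sample far from the others of its group (10 members in the 3 groups of 6 or 7 samples), 1 was marked, and chance marks about 1 in 20. Clec14a in HPN primary 7 stood at 11.7 CPM, where the other 6 HPN primaries ran from 5.24 to 7.92 CPM. Its gap to the nearest was 0.583 of the whole range. HPN primary 7 was also the highest HPN primary for Cdh5 and Emcn and the lowest for Tek and Egfl7, and it is the 1 HPN primary with low-quality entries above 0. Even this sample lay below the lowest node, at 13.6 CPM.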

How the results depend on the processing

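No alternative run turned the direction of a member called in nodes or lungs against primaries, while the number of calls moved. In nodes 3 members passed as reported. The replicate block left 0 and the fit without libraries with low-quality entries 1, where 1274 of 19152 and 1542 of 18820 genes passed. Leaving out each sample gave 2 to 4. In lungs 1 member passed as reported, and 0 passed with DESeq2 size factors, the filter of over 1 CPM, the replicate block and without libraries with low-quality entries. Leaving out any 1 primary also left 0 in lungs. The cause was not tested. In the genotype and lung against node comparisons 0 members passed under every alternative run.

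Most values that changed sign belong to differences that were not called. Called differences that changed sign were Prx in lungs against primaries and Ptprb and Tmem100 in lungs against nodes, each without lung 4. The differences listed next changed sign and were not called. Between genotypes they were Egfl7 with low-quality entries as a term (-0.20), Cldn5 with the replicate block (0.33), and Kdr (0.006) and Egfl7 (-0.006) without libraries with low-quality entries. Between lung and node they were Kdr (0.062), Tie1 (0.007) and Emcn (0.29) with that term, Emcn with the replicate block (0.30), and Kdr (0.12), Tie1 (0.017) and Emcn (0.28) without those libraries. With each sample left out, the genotype differences ran from -0.092 to 0.30 for Cdh5, -0.32 to 0.075 for Cldn5, -0.056 to 0.18 for Clec14a, -0.15 to 0.22 for Egfl7, -0.36 to 0.019 for Kdr and -0.10 to 0.24 for Tie1. The lung against primary differences then ran from -0.63 to 1.72 for Cdh5, -2.56 to 2.63 for Cldn5, -0.71 to 1.60 for Egfl7, -0.69 to 0.97 for Emcn, -0.98 to 1.76 for Kdr, -0.69 to 2.02 for Pecam1, -1.31 to 2.95 for Tek, -1.09 to 1.25 for Tie1 and -0.17 to 3.95 for Prx. The lung against node differences ran from -1.02 to 1.34 for Cdh5, -3.61 to 1.59 for Cldn5, -1.55 to 1.76 for Clec14a, -1.71 to 0.62 for Egfl7, -1.07 to 0.61 for Emcn, -2.09 to 0.66 for Kdr, -2.60 to 0.12 for Pecam1, -2.33 to 1.96 for Tek, -1.77 to 0.59 for Tie1, -0.26 to 2.03 for Vwf, -0.35 to 2.57 for Ptprb and -2.01 to 5.94 for Tmem100. The lowest lung values are those without lung 4.

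Limits are that 2 lungs differ in makeup and that the groups differ in skin and lymphocyte content. Also, 8 libraries hold low-quality entries (4 of 7 HP primaries, 1 of 7 HPN primaries, 2 of 6 node samples and 0 of 2 lungs). For the members, counts of 43 and more per library put counting error below the spread between samples. Some genes of the other lists, such as Angpt4, had lower counts.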
